A study of Rattus norvegicus with 96 samples.

Results

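NIC was compared with SAL in the shell of the nucleus accumbens (NAc) of male F344/BN F1 rats, the subregion that takes up the medial and ventral side of this part of the ventral striatum. The 16 libraries labelled as male NAc shell were taken from the 96 of the series, 8 from rats given NIC (rats 9 to 16) and 8 from rats given SAL (rats 1 to 8). NIC was injected at 0.4 mg/kg and SAL at 1 ml/kg, once daily for 4 days, and the sample labels place the tissue harvest on day 17, while a legend of the study gives a later day. All of these rats were F1 offspring of 2 inbred strains, from crosses in both directions, and the cross of a given rat is not in the labels. The dissection was by hand, so each library holds the RNA of every cell type in the piece of tissue, and fewer cells of a type cannot be told apart from less RNA per cell.

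Most neurons of the NAc are GABAergic projection neurons that carry either the dopamine receptor Drd1 or Drd2 and the phosphoprotein Ppp1r1b. They receive dopamine from the ventral tegmental area, where nicotine acts on acetylcholine receptors of dopamine neurons. The shell is distinguished from the core by its inputs and by peptides such as Cartpt and Nts. The comparison addresses whether repeated NIC leaves a change in shell RNA that outlasts the injections.

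The total count of a library lay between 18917586 and 23528674, and the totals of NIC and SAL overlapped (two-sided exact permutation test, p = 0.779). The labels give a prep batch for each library: SAL libraries were in batches A (4), B (2) and C (2), and NIC libraries in C (3), D (4) and L (1). Only batch C held both treatments, so for most of the rats the prep batch and the treatment cannot be told apart. Eif2s3y, a Y-linked gene, was read in all 16 libraries, with 733 to 1211 counts.

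Checks of the tissue set 2 libraries apart from the others. The first concerned the markers of striatal projection neurons, which should be high in every NAc library. Adora2a, the adenosine receptor of Drd2 neurons, stood at 6.98 CPM (counts scaled to the library total, with TMM factors) in SAL rat 1. In the other 7 SAL libraries Adora2a read 225, 119, 212, 280, 242, 375 and 269 CPM, and in the NIC libraries 104 to 253 CPM. The same library had the lowest Drd1 (5.14 CPM, against 52.5 to 139 in the other SAL libraries) and the lowest Ppp1r1b (163 CPM, against 730 to 1693). It had 0 counts of Drd3 and Isl1, and the highest level of Cck, a peptide made by cortical neurons (900 CPM, against 24.4 to 504 in the other SAL libraries). The summed level of the 15 striatal markers was 1122 CPM in this library and 2636 to 6212 CPM in the other 15. The core library of the same rat was also low, with 11.2 CPM of Adora2a and 9.16 CPM of Drd1.

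**Figure D1:**
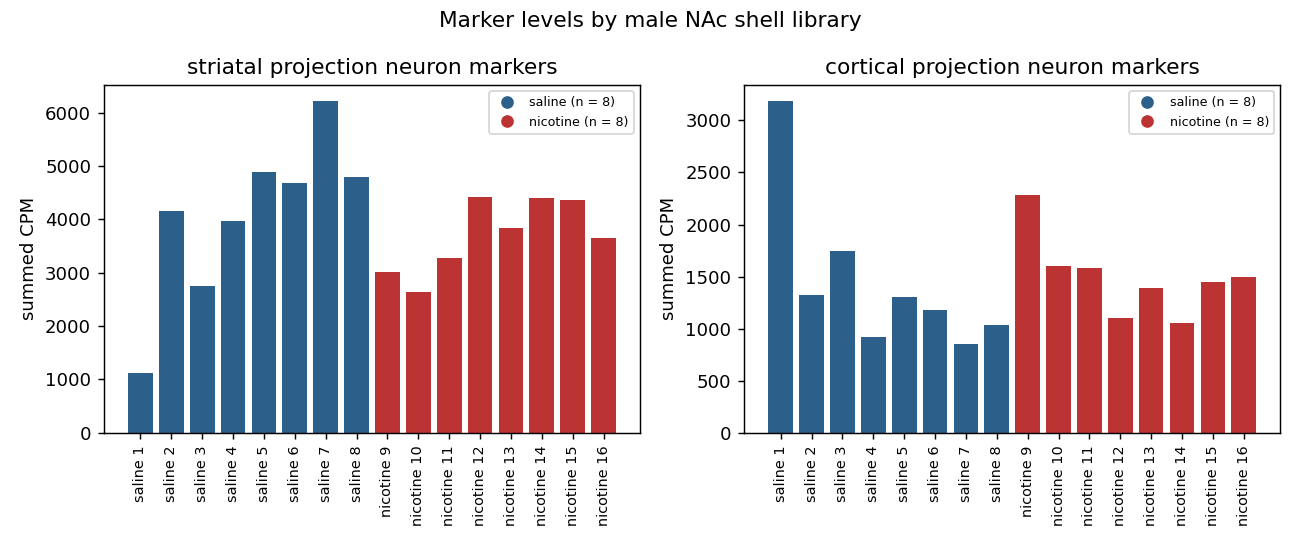
Bars give the summed CPM of 15 striatal projection neuron markers (left) and 3 markers listed for cortical projection neurons (right) in each male NAc shell library, SAL in blue and NIC in red. Nrgn, 1 of these 3, read 2911 CPM in saline 1 and 1928 CPM in nicotine 9 when scaled together with the core libraries. The core libraries of rats other than 9 held 1960 to 3305 CPM of it, so the sum on the right cannot tell cortex from core. Saline 1 is lowest on the left, at 1122 CPM, and highest on the right, at 3181 CPM, and nicotine 9 is the highest NIC library on the right, at 2280 CPM.

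The second check compared the shell library of each rat with the core library of the same rat. Nrgn, a calmodulin-binding protein of forebrain neurons, was lower in shell than in core in 15 of the 16 rats. Rat 9 went the other way, with 1928 CPM in the library labelled shell and 1052 CPM in the library labelled core, where the core libraries of the other rats held at least 1960 CPM. Cartpt was higher in shell than in core in 14 rats, the exceptions being rat 1, where both were low, and rat 9, at 39.7 CPM in shell and 112 CPM in core. Calcr and Dlk1 were higher in shell in 15 rats each, and rat 9 was again the exception, with 0.862 against 2.39 CPM of Calcr and 0.910 against 2.10 CPM of Dlk1. Calb1 followed the label in rat 9. It was lower in shell in 14 of the 16 rats, and in rat 9 it read 49.2 CPM in shell and 68.5 CPM in core. Drd3, higher in shell in 14 rats, read 1.48 CPM in shell and 1.20 CPM in core in rat 9, an order that follows the label, but its core value was above the 0.417 CPM reached by the cores of the other rats. Across genes, 1116 with a mean of at least 1 CPM were ordered alike in the 14 rats other than 1 and 9. Of these, 935 (83.8%) were in the opposite order in rat 9 and 312 in rat 1. For each of the other rats, the share of such genes in the opposite order was between 2.79% and 17.8%. The library labelled nicotine 9 in the shell therefore goes against its label in most of these measures, with Calb1 and the order of Drd3 as exceptions, and "nicotine 9" below is only its label. It was kept where the labels put it, and the counts and leading genes are given with and without it and the library of rat 1. These checks were made after the values were seen.

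**Figure D2:**
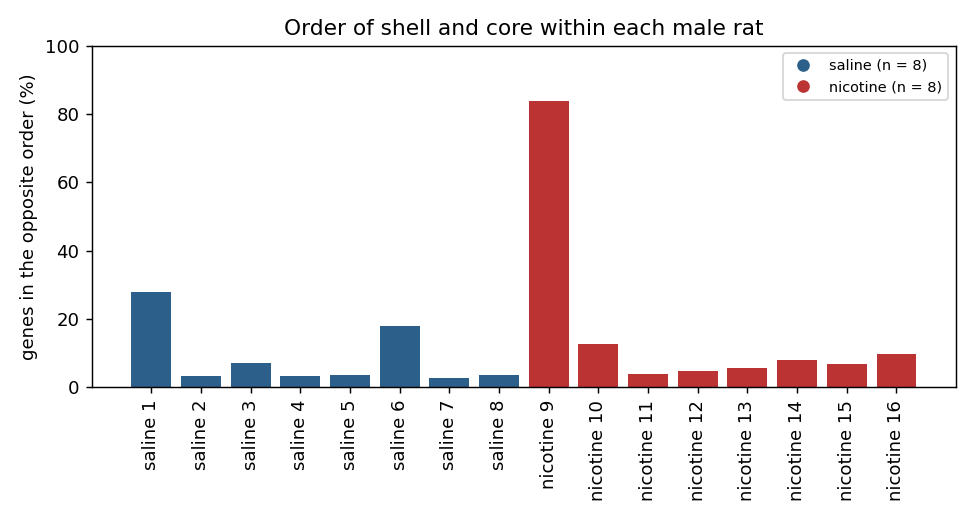
Each bar is 1 male rat, named by its treatment and number, and gives the percent of genes whose order of shell and core was opposite to the order shared by the other rats (rats 1 and 9 never counted among these). Nicotine 9 stands at 83.8% and saline 1 second, and the other 14 rats lie between 2.79% and 17.8%.

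The first principal component of the 500 most variable genes followed these markers and not the treatment. It held 39.2% of the variance, with Adora2a, Cartpt, Rgs9, Scn4b and Nts at one end and Cck, Slc30a3, Nxph3 and Vxn at the other. Its scores overlapped between the treatments (p = 0.506 in an exact permutation test, two-sided), with an SD of 5.33 in NIC and 11.0 in SAL (n = 8 each). Saline 1 had the lowest score, -19.8, and saline 7 the highest, 15.5. The second component, 14.5% of the variance, had Ids, Cplx2 and Camk2a at one end and Myh9 and Cfb at the other, and did not separate the treatments (exact p = 0.773). The third held 7.83% (exact p = 0.0542, and 0.163 after adjustment over the 3 components). The third component of other settings had an exact p of 0.327 (all tested genes), 0.529 (log2 CPM) and 0.503 (without saline 1).

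Few genes differed between NIC and SAL in male NAc shell, and the differences were small. At an unadjusted p under 0.05, the threshold used by the study, edgeR's quasi-likelihood test called 415 of 16879 genes (2.46%), 172 of them higher in NIC (1.02%) and 243 lower (1.44%). Evenly spread p-values would put 844 genes under that threshold. No gene passed Benjamini-Hochberg adjustment, and the smallest adjusted p was 1. The median size of a called change was 0.31 on the log2 scale, and among called genes with a mean of at least 1 CPM, 6 changed beyond 2-fold. Without the library of rat 1 the test called 831 genes (4.92%), of which 320 were also among the 415, all in the same direction, and 130 were called whichever single library was left out. Without both rat 1 and rat 9 the test called 752 (4.46%, and 2.3% lower in NIC). Of the adjusted p-values 0 were under 0.05 in either. Below, a gene is called where the unadjusted edgeR p is under 0.05, and it rose or fell in that sense. The p-values printed for single genes are from two-sided exact permutation tests of log2 CPM; the genes were picked partly for a small edgeR p, so these are no separate evidence, and with edgeR the adjusted p is 1 for each.

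**Figure D3:**
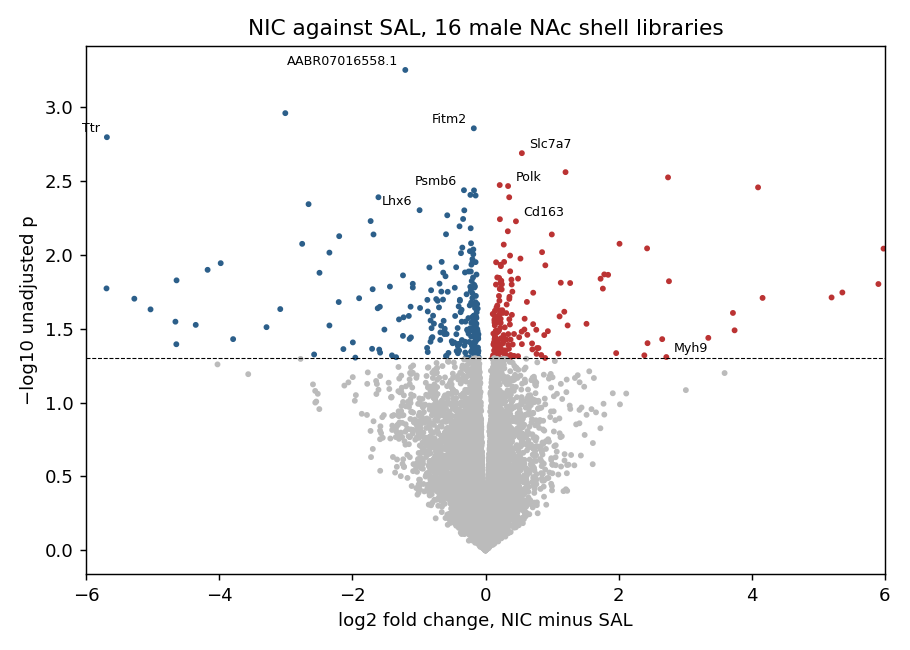
Each point is 1 of the 16879 genes, with the log2 fold change (NIC minus SAL) on the horizontal axis and −log10 of the unadjusted p on the vertical axis; 7 genes lie beyond the horizontal axis and are not drawn. Red points are higher and blue points lower in NIC at an unadjusted p under 0.05 (dashed line), and most of the called genes lie close to 0.

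Slc7a7, a transporter of cationic amino acids, was the gene with a symbol that rose without overlap. Its level in SAL rats 1 to 8 was 2.46, 2.47, 2.60, 1.83, 1.28, 2.18, 2.58 and 2.19 CPM, and in NIC rats 9 to 16 it was 2.81, 3.15, 3.58, 3.15, 2.95, 3.80, 3.34 and 2.89 CPM. Every NIC library was above every SAL library, and the log2 difference was 0.55 ± 0.15 (SE; exact p = 0.000155). Over these libraries 3 genes of 16879 (0.0178%) did not overlap. The other two were AABR07016558.1 and AABR07007121.1, both lower in NIC and both without a described function here. AABR07016558.1 had the smallest edgeR p of all genes (log2 difference -1.21 ± 0.29), but stood at 0.556 to 1.17 CPM in SAL and 0.0962 to 0.502 CPM in NIC, so it rests on few counts. The exact p was 0.000155 for each of the 3, the smallest that 12870 assignments of the rats can give.

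Cd163, the haemoglobin scavenger receptor of perivascular macrophages, rose in NIC. The SAL libraries held 2.40, 2.17, 2.41, 2.01, 3.01, 2.92, 1.77 and 2.61 CPM and the NIC libraries 4.03, 3.70, 2.80, 2.60, 3.47, 2.93, 3.23 and 3.75 CPM. All 8 NIC values were above the SAL median, and the groups overlapped between 2.60 and 3.01 CPM (log2 difference 0.46 ± 0.15, exact p = 0.00233). Lyve1, another receptor of these cells, rose by 0.28 ± 0.13 on the log2 scale (exact p = 0.0452), and was called without rat 9 and without rats 1 and 9, but not without rat 1 alone. Neither Cd163 nor Lyve1 was called with the prep batch as a term. Of the 4 measured markers of perivascular macrophages 2 were called higher (1.02% of all genes), Mrc1 had a log2 difference of 0.23 (exact p = 0.138) and F13a1 one of -0.21 (exact p = 0.172). The summed level of the list was 18.9 to 24.6 CPM in NIC and 16.8 to 24.3 CPM in SAL. Pdgfrb, the growth factor receptor of pericytes, was the 1 called of 6 mural markers, at 110 ± 9.30 CPM in NIC and 98.5 ± 9.54 CPM in SAL (SD, n = 8), and its log2 difference of 0.16 was 0.15 without rats 1 and 9, where it was not called. Of 5 interferon response genes Oas1a and Irf7, the latter a factor that induces interferon genes, fell by 0.42 and 0.40 on the log2 scale (1.44% of all genes were called lower). Without rats 1 and 9 the log2 difference was -0.42 for Oas1a, called, and -0.37 for Irf7, not called. Without rat 9 alone 0 of the 5 interferon response genes were called lower. None of the 10 microglial markers was called, and their median log2 difference was -0.01.

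Polk, a DNA polymerase that copies past damaged bases, and Slf1, a protein of the DNA damage response, also rose, by 0.34 ± 0.10 and 0.36 ± 0.11 on the log2 scale (exact p = 0.00435 and 0.00326). Polk stood at 14.1 to 21.5 CPM in NIC and 11.3 to 16.7 CPM in SAL. Zcchc8, a subunit of a nuclear RNA targeting complex, rose by 0.21 ± 0.06 on that scale (exact p = 0.00420). Among the genes that fell was Fitm2, an endoplasmic reticulum protein needed to form lipid droplets. Fitm2 read 44.5, 41.7, 42.9, 40.2, 44.2, 44.9, 41.1 and 43.5 CPM in SAL and 38.4, 41.0, 38.2, 37.4, 34.6, 39.5, 38.01 and 36.4 CPM in NIC. Only nicotine 10 reached the SAL range, and the change was -0.18 ± 0.05 on the log2 scale (exact p = 0.000311). Hagh, which clears a product of methylglyoxal, fell by 0.23 on that scale (exact p = 0.00513) and Poldip3 fell by 0.15 (exact p = 0.00202). Lhx6, a transcription factor of interneurons from the medial ganglionic eminence, fell by 0.99 (SE 0.31, exact p = 0.00559), from 2.32 ± 1.15 CPM (SD, n = 8) in SAL to 1.16 ± 0.529 CPM in NIC. Saline 4 and saline 6 were the highest for Lhx6, at 3.31 and 4.75 CPM. They also had the highest summed level of 5 septum and ventral pallidum markers, Lhx6 among them, at 80.0 and 86.3 CPM against 36.0 to 62.7 CPM in the other SAL libraries and 38.3 to 74.2 CPM in NIC; the part of such tissue in the result was not tested. With the prep batch as a term the log2 difference of Lhx6 was -0.41, and it was not called. Without rats 1 and 9 these 9 genes were called in the same direction, with log2 differences of 0.60 for Slc7a7, 0.42 for Cd163, 0.35 for Polk, 0.41 for Slf1, 0.20 for Zcchc8, -0.17 for Fitm2, -0.21 for Hagh, -0.14 for Poldip3 and -1.13 for Lhx6. Sst and Pvalb, which mark the 2 main interneuron classes that depend on Lhx6, differed by -0.08 (exact p = 0.332) and -0.10 (exact p = 0.756) on the log2 scale.

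**Figure D4:**
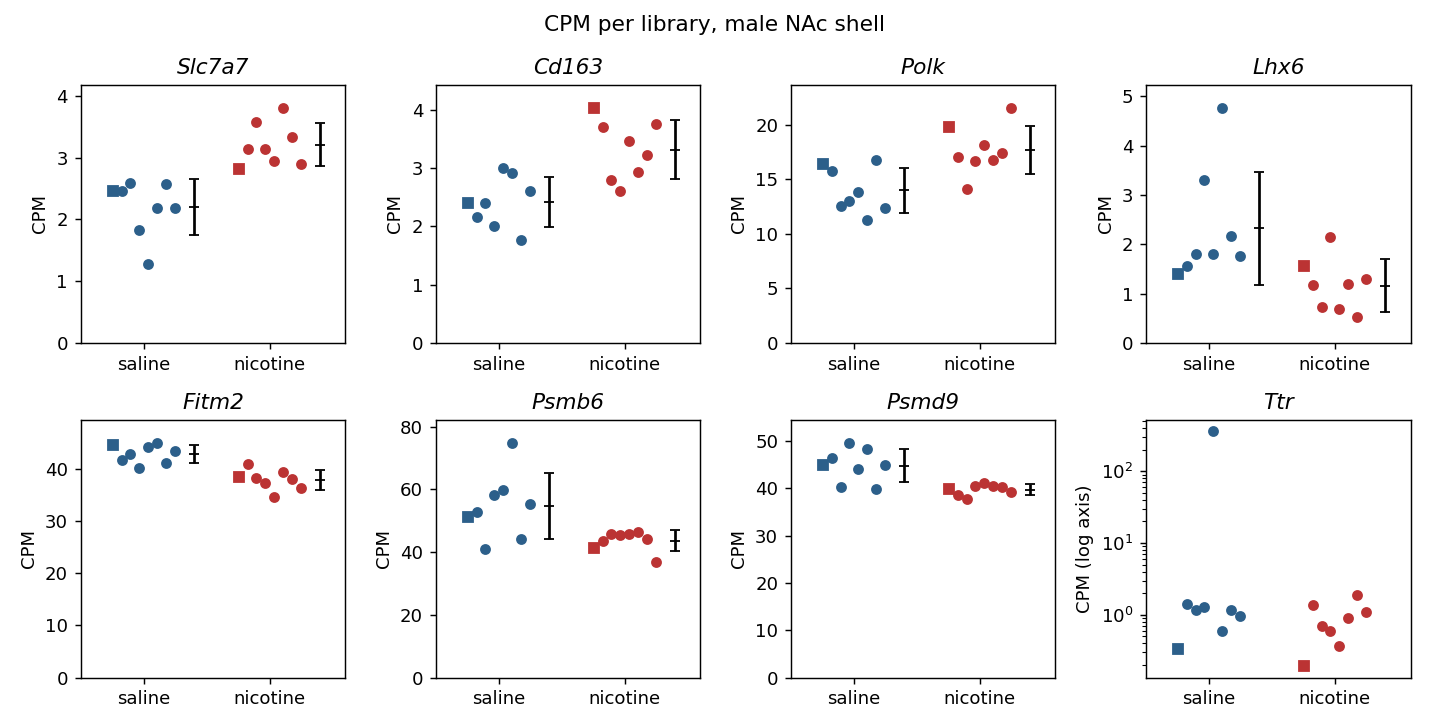
Points are the CPM of single male NAc shell libraries for 8 genes, SAL in blue and NIC in red, with squares for saline 1 and nicotine 9; black bars are the mean and SD of 8 libraries, left out for Ttr, which is on a log axis. The groups do not overlap for Slc7a7, and for Ttr a single SAL library, at 359 CPM, stands apart from 15 libraries under 1.88 CPM.

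Among the genes with the largest fold changes, that of Ttr came from a single library. Ttr, the thyroxine carrier secreted by choroid plexus, had a log2 difference of -5.69 ± 1.53 and was called, yet its exact p was 0.269. It read 359 CPM in saline 5 and 0.335 to 1.41 CPM in the other SAL libraries, against 0.194 to 1.88 CPM in NIC. Without saline 5 the difference was -0.17, and Ttr was not called. The summed level of the 11 choroid plexus markers was 501 CPM in saline 5, against 85.2 to 121 CPM in NIC. Myh9, a non-muscle myosin, was listed at 0 in 5 SAL and 3 NIC libraries and read up to 90.7 CPM in nicotine 13 and 15.1 CPM in SAL, with a log2 difference of 2.72 that stayed between 2.09 and 3.46 when any single library was left out. Its call was lost in some of these fits, its exact p was 0.175, and with the prep batch as a term its log2 difference was 0.40. These levels near 0 in some libraries and not in others are estimates from transcripts, and their cause was not tested.

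Gene symbols came from the study's own tables, which list genes called in some comparison, so the measured members of each gene list are a selection. Of the tested genes 7925 had a symbol, and 2.40% of those were called lower in NIC. Of the 7740 with a symbol from a table other than that of male NAc shell, 1.33% were called lower and 1.02% higher.

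The proteasome, which degrades ubiquitinated proteins, had the most called members in proportion to its size among the 4 lists of over 25 measured genes. Of 29 measured subunits, 6 were called lower in NIC (1.44% of all genes), 0 higher and 23 neither. The median log2 difference was -0.08, beside a median of -0.004 over all tested genes. Among the 25 subunits that another table names, 3 were called lower. Psmb6, the catalytic subunit with caspase-like activity, read 51.2, 52.8, 41.2, 58.3, 59.9, 74.7, 44.1 and 55.3 CPM in SAL and 41.3, 43.6, 45.7, 45.6, 45.8, 46.5, 44.2 and 36.8 CPM in NIC. All 8 NIC values lay below the SAL median, but saline 3 and saline 7 fell within the NIC range (log2 difference -0.32 ± 0.10, exact p = 0.00715). Psmd9, a chaperone of base assembly, fell from 44.8 ± 3.45 to 39.7 ± 1.15 CPM (SD, n = 8; exact p = 0.00311). Psmb3, Psma2, Psmb2 and Psma5, subunits of the core particle, fell by 0.18, 0.17, 0.16 and 0.18 on the log2 scale. Without rats 1 and 9, 5 subunits were called lower (2.3% of all genes), Psma5 being the one lost. Psmb6 then stood at -0.32 and Psmd9 at -0.17 on the log2 scale, and the list's median log2 difference moved to -0.02.

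Of the 25 proteasome subunits found among the promoters of RefSeq (GRCr8; 250 bases before to 50 after the start), 6 were called. The windows of 3 called subunits are shown because they hold the core of the antioxidant response element, TGACNNNGC on either strand, through which proteasome genes are known to respond to oxidative stress. Capitals mark that core and the CCAAT box.
Psmb6 (chr10:55737638-55737937, + strand): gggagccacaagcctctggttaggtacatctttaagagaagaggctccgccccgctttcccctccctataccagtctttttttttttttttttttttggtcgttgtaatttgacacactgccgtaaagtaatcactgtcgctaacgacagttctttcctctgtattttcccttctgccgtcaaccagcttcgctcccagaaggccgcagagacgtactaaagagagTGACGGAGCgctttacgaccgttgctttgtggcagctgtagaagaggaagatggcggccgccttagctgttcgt
Psmd9 (chr12:39018215-39018514, - strand): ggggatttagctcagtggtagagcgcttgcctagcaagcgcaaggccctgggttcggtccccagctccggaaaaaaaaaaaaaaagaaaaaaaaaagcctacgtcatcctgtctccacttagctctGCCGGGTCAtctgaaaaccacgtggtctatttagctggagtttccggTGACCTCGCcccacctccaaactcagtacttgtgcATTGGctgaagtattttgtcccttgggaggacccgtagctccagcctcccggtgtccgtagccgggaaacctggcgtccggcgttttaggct
Psmb2 (chr5:144254808-144255107, + strand): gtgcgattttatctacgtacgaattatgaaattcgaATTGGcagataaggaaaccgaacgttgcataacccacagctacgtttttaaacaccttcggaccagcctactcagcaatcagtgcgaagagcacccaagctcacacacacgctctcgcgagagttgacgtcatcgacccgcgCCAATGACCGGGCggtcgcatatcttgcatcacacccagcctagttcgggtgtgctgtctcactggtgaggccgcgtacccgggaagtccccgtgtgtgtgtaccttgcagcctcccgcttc
The core was in 3 of the 6 called subunits, in 4 of all 25, and in 12.1% of 33469 promoters of the same length. CCAAT, on either strand, was in 5 of the 6, in 14 of the 25 and in 37.5% of all promoters, and in Psmb2 the 2 motifs overlap. A match is a match of letters only.

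Genes of mitochondrial energy production also held called members in the lower direction only. Of 52 measured subunits of the respiratory chain and ATP synthase, 6 were called lower (1.44% of all genes) and 0 higher, with a median log2 difference of -0.07. Among the 47 subunits that another table names, 5 were called lower (1.33% of all genes so named). A negative sign was held by 47 of the 52, beside 8698 of all 16879 genes. Without rat 1, 35 of the 52 were negative. Atp5mc3, part of the ATP synthase ring, stood at 269 ± 17.5 CPM in NIC and 292 ± 12.6 CPM in SAL (SD, n = 8; exact p = 0.00979), and Uqcrc1, of complex III, fell by 0.13 on the log2 scale (exact p = 0.0194). Of the 52, 4 were called lower without rat 1 (2.42% of all genes), 3 without rat 9 (1.36%), 5 with the prep batch as a term (4.96%), and 0 without both rats (2.3%), where the median was -0.03. Of 32 mitochondrial ribosomal proteins 4 were called lower (1.44% of all genes), Mrpl14, Mrpl2, Mrps15 and Mrpl16. Among the 31 that another table names, 3 were called lower (1.33% of all genes so named). Without rats 1 and 9 none of these 4 was called, and Mrpl51 was the 1 called member. Saline 1 had the highest summed level of these 3 lists and nicotine 12 the lowest. Of 34 cytosolic ribosomal proteins only Rpl10l was called, and the median was 0.01.

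The neuronal and receptor lists that bear on NIC held 0 called genes with all 16 libraries. Of 20 nicotinic receptor subunits and chaperones 7 had a symbol, and Chrnb2, a subunit of the high-affinity receptor, stood at 15.2 ± 4.60 CPM in NIC and 16.0 ± 6.43 CPM in SAL (exact p = 0.830). The 5 measured immediate early genes, the 4 opioid genes and the 4 muscarinic receptors held 0 called genes, and Npas4, an activity-dependent transcription factor, read 14.7 ± 5.87 CPM in NIC and 11.9 ± 2.83 CPM in SAL (exact p = 0.322). With the prep batch as a term each of these 4 lists held 1 gene called higher (Lynx1, Homer1, Oprl1 and Chrm3; 6.97% of all genes), and the median log2 difference moved from -0.03 to 0.37 for the nicotinic list and from -0.02 to 0.69 for the muscarinic receptors. Without rat 1, Chrna3 and Oprl1 were called higher (2.5% of all genes), and without rats 1 and 9 the 4 lists held 0 called genes. The 15 striatal projection neuron markers had a median log2 difference of -0.13, and 0 were called with all 16 libraries. Drd1 read 5.14, 87.8, 52.5, 95.7, 94.3, 139, 114 and 113 CPM in SAL and 60.2, 51.4, 67.2, 114, 63.4, 79.8, 77.1 and 68.3 CPM in NIC. The groups overlapped, and saline 1 and saline 6 were the extremes (exact p = 0.975). Without rat 1 the log2 difference was -0.45 for Drd1 and -0.33 for Ppp1r1b, both called, and without rats 1 and 9 it was -0.41 for Drd1, called, and -0.28 for Ppp1r1b, not called. Rat 1 was set apart for its low level of these same genes, so leaving it out raises their SAL mean by construction, and these calls are no independent evidence. Of the 10 dopamine signalling genes, 5 were called lower without rat 1 (2.42% of all genes) and 3 without rats 1 and 9 (2.3%), Drd1, Gng7 and Pde1b. With both rats left out, 3 of the 10 oligodendrocyte markers, Mal, Mag and Ermn, were also called lower (2.3% of all genes). Saline 1 had the lowest summed level of the 10 oligodendrocyte markers (4801 CPM, against 7447 CPM or more in the others) and nicotine 9 the highest of the NIC libraries (13121 CPM), so that leaving them out moves these markers by construction too. Markers of more than one cell type moved with the dopamine signalling genes, and their part in the result was not tested.

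**Figure D5:**
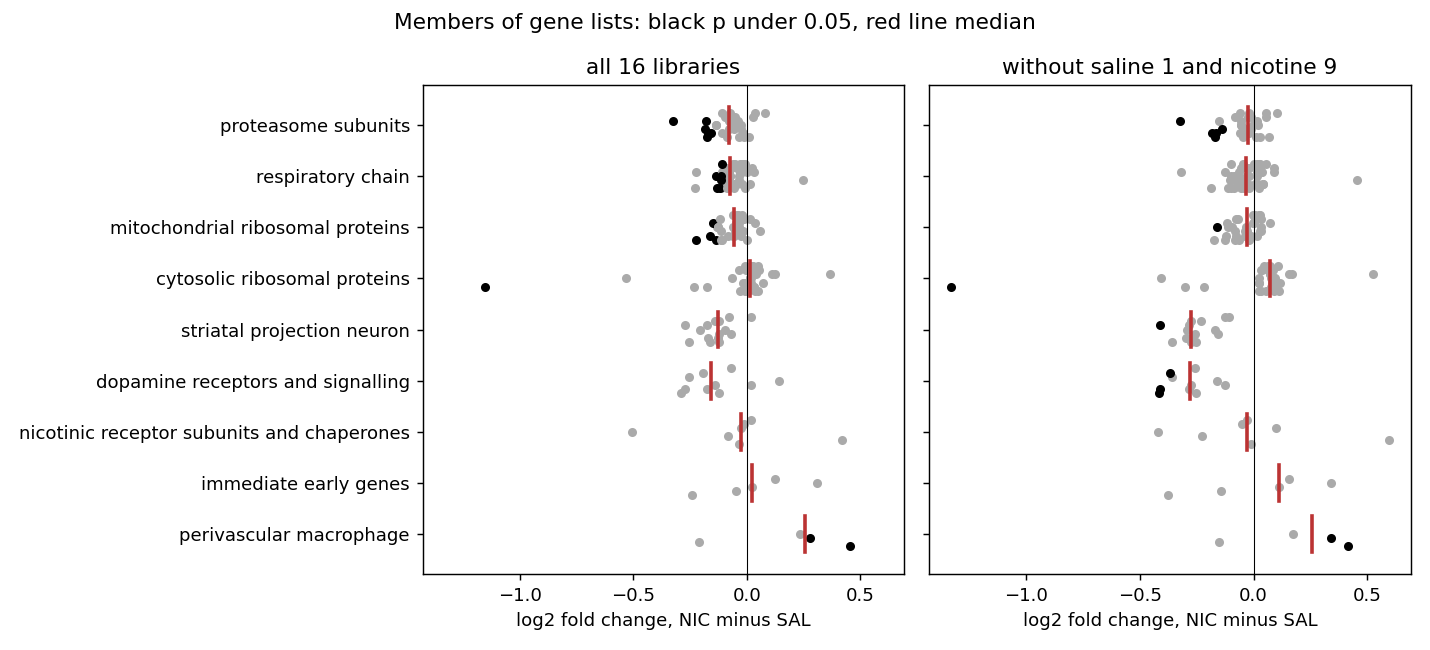
Each point is the log2 fold change (NIC minus SAL) of 1 member of a gene list, from all 16 libraries (left) and without saline 1 and nicotine 9 (right); black points have an unadjusted p under 0.05, and red lines are list medians. The respiratory chain has 6 black points on the left and 0 on the right, and the striatal median moves from -0.13 to -0.28.

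The prep batch moved the results more than any other setting. With it as a term the comparison rests on batch C, 3 NIC against 2 SAL libraries, nicotine 9 among them, and 2013 genes were called (11.9%, and 4.96% lower in NIC), with a smallest adjusted p of 0.0578 over all genes. Within it Slc7a7 differed by 0.42, Fitm2 by -0.15, Cd163 by 0.52, Psmb6 by -0.17, Polk by 0.21, Slf1 by 0.23 and Zcchc8 by 0.11 on the log2 scale, each in the same direction as before and none called. Hagh differed by -0.21 and was not called, and Poldip3 by -0.24 and was called. Of the 6 ependymal markers, which line the ventricle, 6 were called lower in that fit and 0 without the term. Of the 15 striatal projection neuron markers 2 were called lower with the term, with a median log2 difference of -0.68, and 11 with the term and without rat 1 (5.59% of all genes), where the median was -0.67. Saline 7, 1 of the 2 SAL libraries of batch C, had the highest summed ependymal (64.4 CPM) and striatal (6212 CPM) markers of all 16 libraries. Its part in these falls was not tested. Of the proteasome subunits 6 were called lower with the term, with a median of -0.16, but only Psma2 and Psmb3 of these were called without it, and Psmb6 and Psmd9 were not among them.

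The response was set against that of female NAc shell and male NAc core. The interaction of sex and treatment in the shell had an unadjusted p under 0.05 for 1362 genes (8.07%) and an adjusted one for 0, and without rats 1 and 9 for 1627 and 0. Among genes with a symbol and a mean of at least 1 CPM, the 3 smallest p of this interaction were those of Lamc1, Fam20b and Ttr. Lamc1 is a laminin chain (adjusted p = 0.579) and Fam20b a xylose kinase, and the male difference of Ttr came from saline 5. Lamc1 differed by 0.21 in males and -0.28 in females on the log2 scale, and Fam20b by -0.12 and 0.21. Slc7a7 differed by 0.22 in female shell (interaction, adjusted p = 0.755), Cd163 by -0.31 (adjusted p = 0.579) and Psmb6 by 0.17 (adjusted p = 0.579). In female shell 13 of the 15 striatal projection neuron markers were called lower (median log2 difference -0.30). So were 9 of the 10 dopamine signalling genes (-0.31), beside a median of 0.006 over all tested genes. With all libraries 0 genes of these lists were called in male shell or male core. Of the proteasome and respiratory chain genes 0 were called lower in female shell. The interaction of region and treatment in males was under 0.05 for 523 genes (3.1%) and adjusted for 0, and with the rat as a block for 887 (5.26%). Its smallest p among genes with a symbol and a mean of at least 1 CPM were those of AABR07021544.1, Fam206a and Pnrc1 (adjusted p = 0.991 for each). Slc7a7 differed by 0.55 in shell and -0.0049 in core on the log2 scale (adjusted p = 0.991), and Cd163 by 0.46 in shell and 0.53 in core. The proteasome and mitochondrial lists held more genes called lower in male core than in shell. In core 29 of the 52 respiratory chain genes were called lower (median log2 difference -0.12). So were 14 of the 29 proteasome subunits (-0.11) and 10 of the 32 mitochondrial ribosomal proteins (-0.09). The median of all tested genes in core was -0.006. The core library of rat 9 enters these values under its own label.

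Klhdc8b, Fbxl17 and Ctnna2, which the study took up by PCR from its results in other regions than the shell, were looked up here, and 0 of the 3 were called. Klhdc8b read 65.3 ± 2.69 CPM in NIC and 65.0 ± 4.66 CPM in SAL (SD, n = 8; exact p = 0.839), and Fbxl17 and Ctnna2 differed by -0.19 (exact p = 0.497) and -0.18 (exact p = 0.262) on the log2 scale. Under the prep batch term Fbxl17 and Ctnna2 turned to 0.44 and 0.37, neither called. Within batch C alone Ctnna2, at 0.37, was called higher.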

How the data were processed

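The authors trimmed paired-end reads with fastp (0.20.0), estimated expression with Salmon (0.12.0) on the rat genome and collapsed it to genes. The values they deposited are expected counts (estimated counts), given as integers and not scaled: 17637 genes by 96 libraries. The 16879 genes whose scaled count passed 10 in 3 or more of 94 libraries were tested in R 4.3.3 with edgeR 4.0.16 (TMM, quasi-likelihood), with Benjamini-Hochberg adjustment and no covariate. CPM use TMM factors, and log2 CPM a prior count of 2. Single values had two-sided exact permutation tests. The alternatives used limma 3.58.1, DESeq2 1.42.0 and sva 3.50.0. The test was tested on simulated data.

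The members, lists and naming rule were chosen with earlier results of these data known. Named were the 10 smallest p at 1 CPM or more, the largest changes, called or leading list members, genes without overlap, the leading interactions, loadings and variable genes, and 3 genes of the study; 1 gene the rule picked is not reported here. Each library is labelled as 1 rat. Genes at under 1 CPM rest on few counts,. Symbols matched 7926 genes.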

Additional observations from a re-analysis of the deposited data

Results flagged for a closer look

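A gap test (Dixon's) was applied to the 8 libraries of each treatment, for library totals, 3 components, the summed markers and the leading genes. It set apart 20 of 158 groups, where chance alone sets apart about 1 in 20, and groups that share a library are not independent. Saline 1 stood apart in the summed GABA interneuron markers (1544 CPM), cortical projection neuron markers (3181 CPM) and proteasome subunits (3623 CPM), and in Tcfl5 (1.68 CPM). Nicotine 9 stood apart in the cortical projection neuron markers (2280 CPM), the dopaminergic neuron markers (60.7 CPM) and the circadian clock genes (1268 CPM). The list named for cortical projection neurons holds Nrgn, which was also high in NAc core libraries, so its sum cannot tell cortex from core. Saline 5 stood apart in the choroid plexus markers (501 CPM) and in Ttr (359 CPM).

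Saline 6 stood apart in the glucocorticoid targets (207 CPM), in Slf1 (6.64 CPM) and LOC108348151 (4.46 CPM). Saline 2 did so in the perivascular macrophage markers (24.3 CPM) and Mrpl16 (21.1 CPM), saline 3 in the dopaminergic neuron markers (37.4 CPM), saline 4 in the progenitor and neuroblast markers (121 CPM) and saline 8 in AABR07007121.1 (7.02 CPM). Among NIC libraries, nicotine 13 stood apart in Oas1a (3.05 CPM), nicotine 14 in AABR07016558.1 (0.0962 CPM) and nicotine 16 in Crnkl1 (3.06 CPM).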

How the results depend on the processing

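The count of 415 called genes (172 higher, 243 lower) moved to 743 (263 and 480) with all 12 groups in one fit, to 879 (447 and 432) with limma's quality weights, to 2013 (1176 and 837) with the prep batch as a term, and to 2301 (1389 and 912) within batch C. Settings added after seeing the data gave 747 (369 and 378) without saline 1 and saline 5, 752 (364 and 388) without saline 1 and nicotine 9, 2412 (1469 and 943) with the batch term and without saline 1, and 1483 (845 and 638) without batches A and L. Leaving out each library in turn gave 299 to 831 genes, 114 to 422 higher and 176 to 409 lower: 831 without saline 1, 636 without nicotine 14, 273 higher without saline 7 and 114 higher without nicotine 16. Other size factors, filters, robust dispersion and a surrogate variable stayed within 1.5 times. No setting of edgeR or limma gave an adjusted p under 0.05, and DESeq2's own test gave 2 such genes, both without a symbol here and read in 4 and 2 of the 16 libraries. Numbers pair the regions of a rat but not NIC with SAL, so the rat entered as a block only in the interaction of region and treatment: 887 genes against 523 (461 against 207 higher). That count was 1253 (627 higher, 626 lower) without saline 1 and 960 (405 and 555) without both libraries of rats 1 and 9. Leaving out each library gave 392 to 1253 (151 to 627 higher, 231 to 626 lower), and 1076 to 1685 for sex and treatment. The difference in mean total ranged from -534960 to 148270 counts. Fbxl17 turned to 0.44 with the batch term, 0.44 within batch C, 0.45 with that term and without saline 1, and ranged from -0.280 to 0.00587 over left-out libraries, above 0 only without saline 6; Ctnna2 turned to 0.37, 0.37 and 0.38. Klhdc8b turned to -1.63e-05 without batches A and L and ranged from -0.020 to 0.028 over left-out libraries. The causes were not tested.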
